A study of Caenorhabditis elegans with 4 samples.

Results

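The genes described are 10 genes of germ granules and primordial germ cells in Caenorhabditis elegans: pgl-1, pgl-3, glh-1, glh-2, glh-4, nos-1, nos-2, xnd-1, mes-4 and deps-1. They were picked by name, with earlier results of these data known, and all 10 were found among the 41614 genes of the table. Germ granules, called P granules in the worm, are droplets of RNA and protein that are handed from the egg to the germ lineage and sit on the nuclei of germ cells. A newly hatched larva holds a pair of primordial germ cells, which stay undivided until it feeds, so nearly all RNA of a whole larva comes from the soma. In bulk RNA, fewer cells of a type and less RNA per cell cannot be told apart.

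Total RNA was measured by bulk sequencing of whole larvae at the first larval stage (L1). There were 2 libraries of wild-type animals and 2 of dve-1(uf171) mutants, and dve-1 encodes a homeodomain protein. Per the labels, both genotypes were grown at 25 degrees Celsius on OP50 bacteria and about 1200 larvae went into each collection. Only 1 mutant allele was used, and whether larvae had fed, whether the strain was outcrossed and whether replicates came from separate cultures is not stated in the labels. The p-values therefore measure only the spread between these libraries, which may be technical.

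Values are FPKM, which scale the fragments of a transcript by its length and by the depth of the library, summed over the accessions of a gene. All accessions together came to between 2.05e+06 and 2.39e+06 FPKM per library. Depth is not listed, and low values fitted to whole fragments put the wild-type libraries at about 23400000 and 21500000 fragments and the mutant ones at about 17600000 and 17700000. After the fit, 46.2% and 46.5% of the transcripts used lay within 0.1 of a whole fragment in the wild-type libraries. In the mutant ones 32.4% and 30.9% did, and some transcripts would lie so near without a true fit. Fragment numbers given further on are therefore rough, most of all for the mutant. The targeted gene dve-1 had 15.1 and 19.5 FPKM in wild-type larvae and 23.4 and 25.5 FPKM in mutant larvae, and its RNA level does not test the genotype labels. Tissue markers for a whole larva were present: summed levels ranged over the 4 libraries from 670 to 817 FPKM for 4 body wall muscle genes, from 607 to 852 for 4 pharynx genes and from 676 to 832 for 6 neuron genes, with overlap between genotypes for muscle and neurons and a narrow gap for pharynx (763.4 FPKM in the higher wild-type library and 763.6 in the lower mutant one). For 6 intestine genes the sum was 5282 and 5438 FPKM in wild-type larvae and 3334 and 4526 FPKM in mutant larvae, and for 5 epidermis genes it was 155 and 113 and then 66.6 and 103 FPKM. The intestine and epidermis sums were both lower in the mutant without overlap, as were glh-4 and nos-2 described further on. The epidermis sum rests partly on genes that differed more between replicates than between genotypes. Of these, dpy-7 had 23.1 and 0.232 FPKM in wild-type larvae and 2.37 and 10.8 FPKM in mutant larvae. For rol-6 the values were 47.8 and 0.986 and then 2.23 and 20.01 FPKM. Whether the libraries differed in larval age or feeding within L1 was not tested. Most of the intestine sum was asp-1, at 3851 and 4141 FPKM in wild-type larvae and 2598 and 3306 FPKM in mutant larvae. Singly, 3 intestine genes were lower and 0 higher without overlap, and 2 epidermis genes lower and 1 higher (elt-3). Of all genes tested below, 15.9% were lower and 28.1% higher in this way. The intestine genes elt-7 and ges-1 stood higher on average in the mutant, with overlap. The median log2 fold change was -0.27 for the intestine genes, -0.26 for the epidermis genes, -0.06 for muscle, -0.01 for pharynx and 0.24 for neurons. Of these markers 0 passed the test used below (limma), with 1 pharynx and 1 neuron gene at an unadjusted p under 0.05. Over all tested genes 1.66% passed and 11.9% had such an unadjusted p, so these counts do not show that the tissues were alike. The part of other tissues in the results was not tested.

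Of the germ granule and primordial germ cell genes, only glh-1 stood above the median of expressed protein-coding genes by mean level over the 4 libraries. Ordered by mean wild-type level, glh-1 led with 11.2 ± 0.886 FPKM (SD, n = 2), followed by mes-4 at 5.70 ± 0.720, glh-4 at 5.25 ± 0.364, deps-1 at 3.88 ± 0.332 and xnd-1 at 2.62 ± 0.219. Below these came pgl-3 at 1.84 ± 0.0105 FPKM, nos-1 at 1.72 ± 0.151, glh-2 at 1.64 ± 0.132, nos-2 at 1.02 ± 0.152 and pgl-1 at 0.601 ± 0.850 (SD, n = 2). Within this order the wild-type values of mes-4 and glh-4, of nos-1 and glh-2, and of nos-2 and pgl-1 overlapped, and the other neighbours did not. Among 17129 protein-coding genes above 0 in any library, glh-1 stood at percentile 55.5 by mean level over the 4 libraries, mes-4 at 45.1, and the other 8 between 21.2 and 41.0. For glh-4 and nos-2 this mean includes their lower mutant values. For pgl-1 it includes a listed 0 in each genotype, and its last place in the wild-type order rests on a 0 beside 1.20 FPKM.

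**Figure D1:**
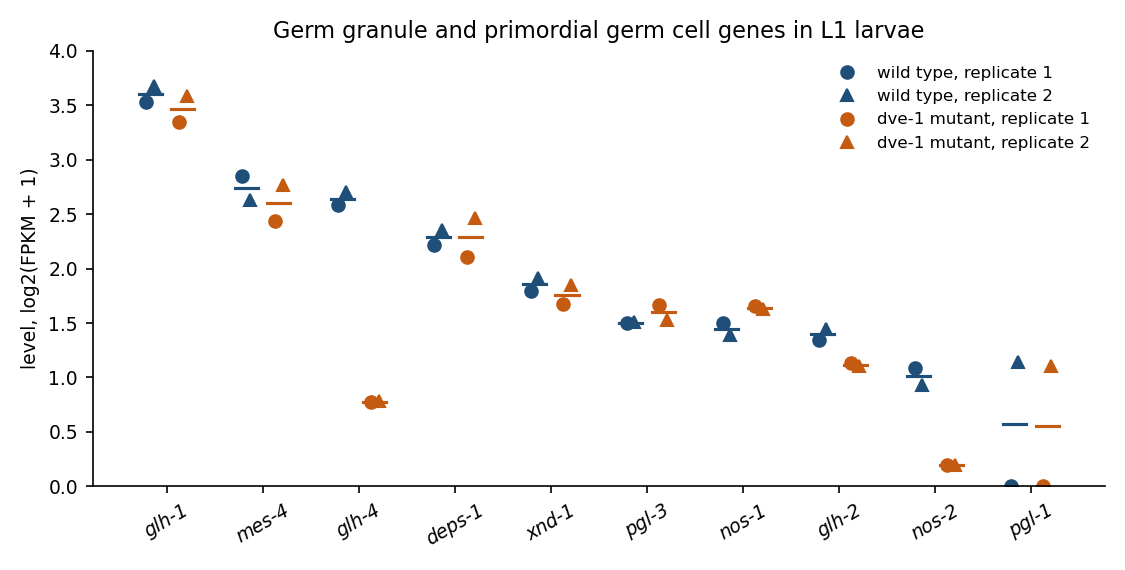
Level of the 10 genes in each library, as log2(FPKM + 1), in the order of their wild-type means. Points are single libraries and short lines are the means of 2 libraries. The mutant points of glh-4 and nos-2 lie far below the wild-type points, while those of the other 8 genes lie near or among them.

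Between the genotypes, glh-4 and nos-2 stood about 7-fold lower in the mutant and the other 8 genes differed by less than 1.5-fold, but no gene passed the test. Testing took in genes whose mean over the 4 libraries reached 1 FPKM, with limma on log2(FPKM + 1), which left 8 of the 10 in a fit over 15202 genes, with pgl-1 and nos-2 below the limit. Of the 8 tested genes, 0 passed at an adjusted p of 0.05 (limma, Benjamini-Hochberg), where 1.66% of all tested genes did. At an unadjusted limma p under 0.05 there was 1, glh-4, where 11.9% of all tested genes had such a p. The mutant libraries were both below the wild-type ones in 2 of the 8 (glh-2 and glh-4), against 15.9% of all tested genes. In 2 others (pgl-3 and nos-1) they were both above, against 28.1% of all tested genes. The median log2 fold change of the 8 was -0.12, and that of all tested genes was 0.09. These counts lay near the shares of all tested genes, and they do not include nos-2 and pgl-1.

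**Figure D2:**
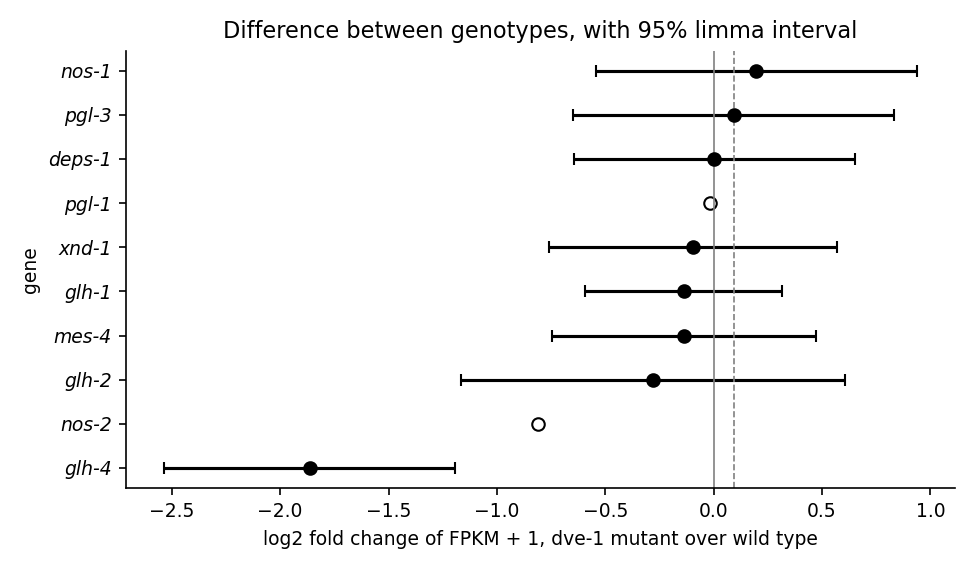
Log2 fold change of FPKM + 1, mutant over wild type, for the 10 genes. Filled points are the 8 tested genes with their 95% limma intervals, open points are the untested pgl-1 and nos-2, the solid line marks 0 and the dashed line the median of all tested genes (0.09). Of the 8 intervals only that of glh-4, from -2.54 to -1.19, lies wholly below 0, and it is not adjusted for the number of genes tested.

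The scaffold of the P granule is formed by the PGL proteins. The gene pgl-3 (C18G1.4, chromosome V, 4755979 to 4758587, WBcel235) had 1.83 and 1.84 FPKM in wild-type larvae and 2.17 and 1.89 FPKM in mutant larvae. The mutant values were slightly higher without overlap, and the log2 fold change of 0.09 (SE 0.25) missed the threshold (limma adjusted p = 0.9). Its 95% interval, on the scale of log2(FPKM + 1), ran from -0.65 to 0.83.

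The related scaffold gene pgl-1 (ZK381.4, chromosome IV, 6974442 to 6977318) had 0 and 1.20 FPKM in wild-type larvae and 0 and 1.15 FPKM in mutant larvae. The first library of each genotype was thus at 0 and the second was not, and the genotypes overlapped fully. The values above 0 correspond to an estimated 58.0 and 45.5 fragments, so the value of 0 beside them is given only as listed. Such a value of 0 beside at least 1 FPKM in the other replicate occurred in 375 of 17970 protein-coding genes in at least 1 genotype and in 68 in both, and in 11 it was the first library of both genotypes. For pgl-1, 1 accession was in the table, while the annotation gives 3 transcripts of 2316 to 2423 nt.

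For pgl-3 the listed split of its level between accessions differed between the genotypes. How many reads tell these accessions apart is not listed, so the split is given only as listed and does not establish a change of transcript. The accession NM_071877 had 0.425 and 0.682 FPKM in wild-type larvae and 2.17 and 1.51 FPKM in mutant larvae. The accession NM_071878 had 1.40 and 1.16 FPKM in wild-type larvae and 0 and 0.378 FPKM in mutant larvae. The first of them held 23.3% and 37.0% of the gene's FPKM in wild-type larvae and 100% and 79.99% in the mutant, a difference of 59.9 percentage points with no overlap. A similar shift was seen for deps-1, where NM_001306264 held 58.3% and 46.6% in wild-type larvae and 82.1% and 80.9% in mutant larvae, a difference of 29.1 points.

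Shifts of at least 20 points were found in other genes as well, and how many reached the 59.9 points of pgl-3 was not counted. Of 1964 genes with 2 accessions, a gene mean of 1 FPKM or more and a gene value above 0 in every library, 10.3% had shares that did not overlap between genotypes and differed by at least 20 points. Accessions were also tested one by one where their mean reached 1 FPKM, which left out NM_071878, the second accession of pgl-3, and the single accessions of pgl-1 and nos-2. None of the others passed: adjusted p was 0.56 for NM_071877, 0.627 for NM_001306264 and 0.604 for NM_058341, the other deps-1 accession (limma over 17854 accessions, of which 1.38% passed). At an unadjusted p under 0.05, which 11.3% of accessions had, there was only that of glh-4. With the highest accession standing for the gene instead of the sum, the log2 fold change was 0.31 for pgl-3 and 0.40 for deps-1 (limma adjusted p = 0.687 and 0.624). The transcripts of each gene in the annotation are near in length for pgl-3 (2272 and 2285 nt) and further apart for deps-1 (1725 and 2044 nt), and the accessions could not be tied to them from the sources used here.

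**Figure D3:**
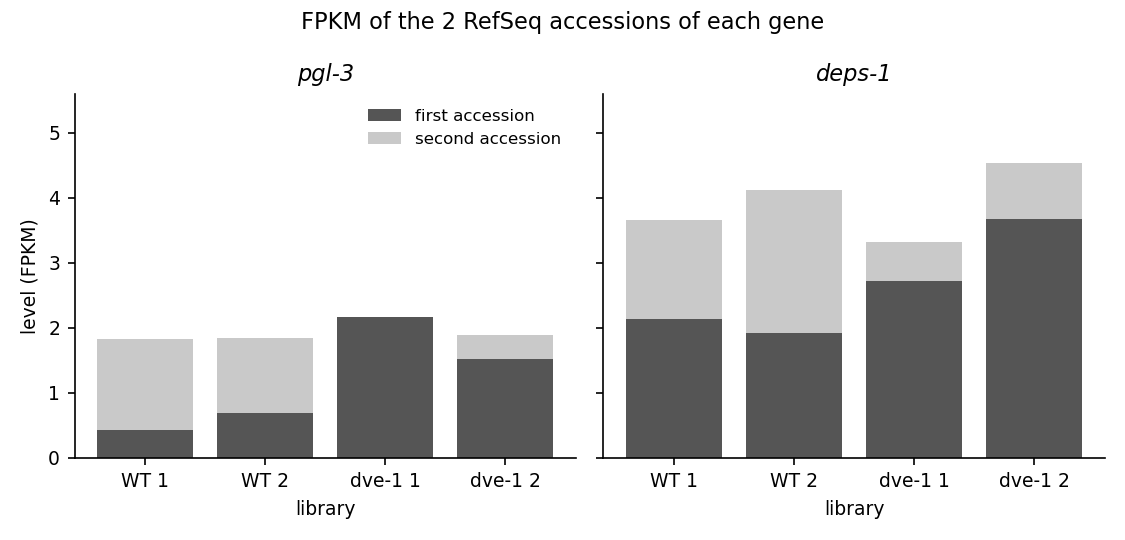
FPKM of the 2 RefSeq accessions of pgl-3 and of deps-1, stacked, in each of the 4 libraries (WT, wild type). The first accession is NM_071877 for pgl-3 and NM_001306264 for deps-1. The stacked totals overlap or nearly meet between genotypes, while the first accession takes a larger part of them in both mutant libraries.

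The GLH proteins are DEAD-box RNA helicases related to Vasa and are constitutive parts of P granules. The most abundant, glh-1 (T21G5.3, chromosome I, 6854478 to 6857536), had 10.6 and 11.8 FPKM in wild-type larvae and 9.20 and 10.99 FPKM in mutant larvae. The genotypes overlapped, and the log2 fold change was -0.14 (SE 0.15, limma adjusted p = 0.707). Its 95% interval, from -0.59 to 0.32, was the narrowest among the 8 tested genes.

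The close paralog glh-2 (C55B7.1, chromosome I, 6513928 to 6517507) had 1.54 and 1.73 FPKM in wild-type larvae and 1.19 and 1.15 FPKM in mutant larvae. Both mutant values were lower without overlap, but the log2 fold change of -0.28 (SE 0.30) missed the threshold (limma adjusted p = 0.694). How reads shared between paralogs were counted is not stated, so levels of the glh genes are uncertain to that extent. A further paralog, glh-3, had 1.78 and 1.23 FPKM in wild-type larvae and 2.33 and 1.92 FPKM in mutant larvae, higher without overlap (limma adjusted p = 0.638).

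The largest difference of the 10 genes was that of glh-4 (T12F5.3, chromosome I, 3727027 to 3731179, plus strand). It had 4.99 and 5.50 FPKM in wild-type larvae and 0.709 and 0.720 FPKM in mutant larvae. The replicates of each genotype lay close together and the genotypes were far apart, with a mean of 5.25 ± 0.364 FPKM in wild type and 0.714 ± 0.00809 FPKM in the mutant (SD, n = 2), a 7.34-fold lower level. These values correspond to roughly 416 and 422 fragments in wild-type larvae and 43.9 and 45.3 in mutant larvae. The log2 fold change was -1.86 (SE 0.23, limma unadjusted p = 0.00223), and the adjusted p of 0.0844 missed the threshold. By unadjusted p, glh-4 ranked 400 among 15202 tested genes, and by its log2 fold change it was number 205 from the lowest among 12599 protein-coding genes. Over all tested genes, 206 passed as lower and 46 as higher in the mutant (limma adjusted p under 0.05).

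The call on glh-4 depended on the settings, its direction did not. With a pseudocount of 0.01, without the intensity trend, or among protein-coding genes only, it passed as lower (limma adjusted p = 0.0437, 0.0245 and 0.0458). It also passed without either wild-type library (0.0364 without the first and 0.0329 without the second) and missed without either mutant library (0.2 and 0.158). These 4 fits kept the genes tested with all libraries. With the limit of 1 FPKM applied anew to the 3 remaining libraries, glh-4 missed in each of them, the limma adjusted p being 0.081 and 0.0651 without a wild-type library and 0.205 and 0.159 without a mutant one. Keeping the genes was chosen after both outcomes had been seen, so the passes without a wild-type library rest on that choice. In all 20 alternatives that tested it, the log2 fold change lay between -2.86 and -1.8.

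Set against glh-1 in the same library, glh-4 stood at a ratio of 0.473 and 0.466 in wild-type larvae and of 0.0770 and 0.0655 in mutant larvae. The ratio of glh-2 to glh-1 was 0.146 in each wild-type library and 0.129 and 0.105 in mutant larvae. These ratios do not depend on the scaling of a library, and they show unequal differences within the family without saying that glh-1 was constant. The annotation holds 1 transcript of glh-4 (3747 nt) and no other gene overlapping its exons.

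Genes near glh-4 did not share the size of its difference. The gene directly downstream on the same strand, T12F5.2, begins 172 nt after it and had 1.65 and 1.56 FPKM in wild-type larvae and 0.934 and 1.08 FPKM in mutant larvae. These values were lower without overlap and did not pass (log2 fold change -0.38, limma adjusted p = 0.627). The nearest upstream protein-coding gene, lin-59, overlapped between genotypes with 35.4 and 51.6 FPKM in wild-type larvae and 50.2 and 45.3 FPKM in mutant larvae. Across the 8 other protein-coding genes with any part within 25 kb, log2 fold changes ran from -0.38 to 0.22. This window was examined after the values of glh-4 had been seen.

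DEPS-1 is a P granule protein needed for normal granule assembly and for the accumulation of glh-1 RNA. Its gene deps-1 (Y65B4BL.2, chromosome I, 506473 to 509056) had 3.65 and 4.12 FPKM in wild-type larvae and 3.32 and 4.53 FPKM in mutant larvae. The mutant libraries lay on either side of the wild-type ones, and the log2 fold change was 0.003 (SE 0.22, limma adjusted p = 0.999). Its sign turned under median-ratio scaling and quantile normalization.

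Nanos proteins are RNA-binding repressors that keep primordial germ cells from dividing early and are needed for their survival. In the worm nos-2 RNA is supplied by the mother and translated in the embryo, while nos-1 is made by the germ cells themselves later. The gene nos-2 (ZK1127.1, chromosome II, 7065618 to 7067051, plus strand) had 1.13 and 0.911 FPKM in wild-type larvae, against 0.149 FPKM in each mutant library. The genotypes were well apart, at 1.02 ± 0.152 and 0.149 ± 0.000170 FPKM (SD, n = 2), a 6.82-fold lower level in the mutant. The wild-type values correspond to an estimated 28.0 and 20.8 fragments and the mutant values to 2.7 and 2.8, so the mutant level rests on a few fragments in each library and the small SD does not reflect counting error.

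Because its mean was under 1 FPKM, nos-2 had no test among the 15202 genes. Without a filter on low values it missed the threshold, with a log2 fold change of -0.81 (SE 0.12, limma unadjusted p = 0.00524, adjusted p = 0.155 over 20613 genes, of which 1.68% passed and 10.6% had an unadjusted p under 0.05). The pseudocount of 1 compresses so low a gene, and with a pseudocount of 0.1 the log2 fold change was -2.16 (limma adjusted p = 0.19).

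The related gene nos-1 (R03D7.7, chromosome II, 10951592 to 10953165) had 1.83 and 1.61 FPKM in wild-type larvae and 2.14 and 2.09 FPKM in mutant larvae. Here the mutant values were the higher ones, without overlap, and the log2 fold change of 0.20 (SE 0.25) missed the threshold (limma adjusted p = 0.748). The ratio of nos-2 to nos-1 was 0.616 and 0.565 in wild-type larvae and 0.0697 and 0.0713 in mutant larvae.

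Over 154 of its exon bases nos-2 overlaps an exon of him-14, which encodes a meiotic crossover protein and runs across nos-2 on the opposite strand. Strand is not stated in the labels, so reads of the shared bases cannot be assigned to either gene. The gene him-14 had 0.767 and 0.884 FPKM in wild-type larvae and 0.853 and 0.641 FPKM in mutant larvae, with overlap. Beside him-14, 12 protein-coding genes had some part within 25 kb of nos-2. Of these 6 had a positive and 6 a negative log2 fold change, and of the 11 tested 0 passed by limma and 3 had an unadjusted p under 0.05, against 11.9% of all tested genes. The lowest was cin-4, with 2.39 and 3.20 FPKM in wild-type larvae and 0.591 and 0.814 FPKM in mutant larvae (log2 fold change -1.15, limma adjusted p = 0.351).

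**Figure D4:**
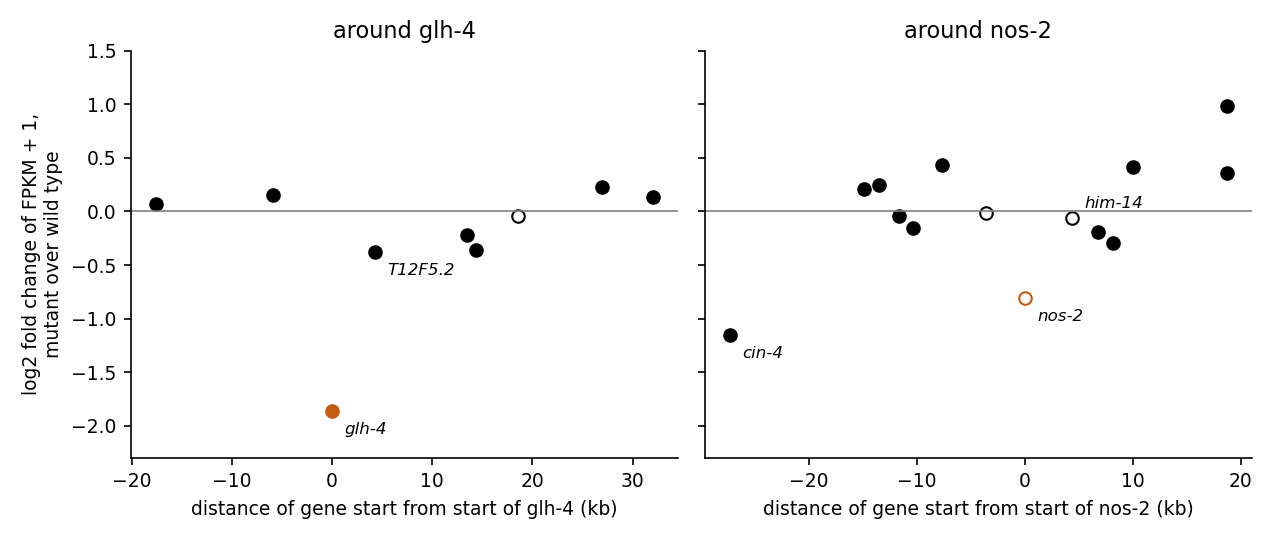
Log2 fold change of FPKM + 1, mutant over wild type, of the protein-coding genes with any part within 25 kb of glh-4 (left) and nos-2 (right), against the distance in kb between gene starts. The named gene at distance 0 is coloured, and open points were under a mean of 1 FPKM and not tested. The difference of glh-4 (-1.86) is the largest in its panel. In the other, cin-4 (-1.15) lies lower than nos-2 (-0.81) on this scale, which compresses low genes. By mean FPKM nos-2 was 6.82-fold and cin-4 3.98-fold lower in the mutant.

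The chromatin regulator genes mes-4 and xnd-1 overlapped between the genotypes. The gene mes-4 (Y2H9A.1, chromosome V, 13433050 to 13437545) encodes a histone H3 lysine methyltransferase that passes the memory of germline gene activity to the primordial germ cells. It had 6.21 and 5.19 FPKM in wild-type larvae and 4.41 and 5.82 FPKM in mutant larvae, with overlap (log2 fold change -0.14, SE 0.21, limma adjusted p = 0.795). Without the first mutant library its sign turned. The gene xnd-1 (C05D2.5, chromosome III, 5604460 to 5607556) encodes a chromatin factor of germ cells that also governs the placement of meiotic crossovers. It had 2.47 and 2.78 FPKM in wild-type larvae and 2.20 and 2.60 FPKM in mutant larvae, again with overlap (limma adjusted p = 0.883, log2 fold change -0.09, SE 0.22).

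The spread between replicates differed from gene to gene. The second mutant library was at 1.37 times the first for deps-1, 1.32 times for mes-4, 1.19 times for glh-1 and 1.18 times for xnd-1. For glh-4 and nos-2 the same ratio was 1.02 and 0.998. In wild type, leaving pgl-1 aside, the second library was between 0.809 (nos-2) and 1.13 times the first. For glh-2, glh-4, nos-1 and nos-2 the wild-type replicates were further apart than the mutant ones.

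Further genes were then read from 7 lists in the same fit, among them lists of repressors in somatic cells and of cell division genes. RNA of whole larvae does not show whether the levels of list members come from germ cells or from the soma. Of 108 tested list members 0 passed (limma adjusted p of 0.05), with 1 at an unadjusted p under 0.05. Of all tested genes, 1.66% passed and 11.9% had such an unadjusted p. The counts without overlap that follow are to be read against 28.1% of all tested genes higher and 15.9% lower in the mutant. Other germ granule genes numbered 21, of which 18 were in the table and 15 were tested. Their median log2 fold change was -0.02, and 2 stood higher and 4 lower without overlap. The most abundant were ife-1, an eIF4E form bound by PGL-1, at 116 and 130 FPKM in wild-type larvae and 115 and 127 in mutant larvae, and the RNA-binding protein genes car-1, at 104 and 122 and at 71.0 and 88.8 FPKM, and cgh-1, at 23.3 and 34.1 and at 19.5 and 25.7 FPKM (limma adjusted p = 0.955, 0.428 and 0.627). The embryonic P granule genes meg-1, meg-2 and meg-4 stood at 0.286 FPKM or less in every library, and meg-3 at 2.22 to 3.24 FPKM.

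Of the small RNA pathway genes of the germ line, all 19 were in the table and 17 were tested, with a median log2 fold change of -0.03, and 2 stood higher and 5 lower without overlap. The Argonaute gene ergo-1 had 39.4 and 39.0 FPKM in wild-type larvae and 40.8 and 39.9 in mutant larvae, the RNA polymerase gene rrf-1 at 31.3 and 34.1 and at 33.1 and 30.98, and the piRNA Argonaute gene prg-1 at 31.01 and 27.3 and at 28.4 and 35.6 (limma adjusted p = 0.886, 0.937 and 0.77).

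Regulators of germ cell fate, 17 tested of 21, had a median log2 fold change of -0.06, with 2 higher and 3 lower without overlap. The phosphatase gene lip-1 had 28.6 and 46.1 FPKM in wild-type larvae and 39.2 and 30.8 in mutant larvae, the RNA-binding protein gene mex-3 at 30.6 and 34.2 and at 25.5 and 32.4, and the poly(A) polymerase gene gld-2 at 21.3 and 26.5 and at 18.2 and 25.9 (limma adjusted p = 0.954, 0.68 and 0.856). Germline chromatin genes, 11 tested of 12, had a median of -0.12, with 1 higher and 4 lower without overlap. Of these the histone variant gene htz-1 had 551 and 527 FPKM in wild-type larvae and 380 and 456 in mutant larvae, the chromodomain gene mrg-1 at 49.8 and 60.5 and at 45.7 and 45.5, and the demethylase gene spr-5 at 23.4 and 24.4 and at 26.4 and 27.7 (limma adjusted p = 0.439, 0.571 and 0.611).

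The synMuv B proteins with LIN-35, the worm Rb protein, keep germline genes such as pgl-1, pgl-3 and glh-1 silent in somatic cells. All 15 genes on this list were tested, with a median log2 fold change of -0.04, and 2 stood higher and 3 lower without overlap. The heterochromatin protein gene hpl-2 was the 1 list member with an unadjusted limma p under 0.05, with 82.5 and 89.6 FPKM in wild-type larvae and 67.1 and 58.4 in mutant larvae (log2 fold change -0.45, adjusted p = 0.36). The genes lin-53 and mep-1 overlapped between genotypes (limma adjusted p = 0.901 and 0.923).

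Among genes of meiosis and gametes, which mostly act in germ cells after L1, 8 of 25 in the table had a mean under 1 FPKM. The most abundant was him-8, at 131 and 139 FPKM in 1 library of each genotype and at 0 in the other. This gene and rad-51, the next in level, are described further on. Of the 17 tested, 6 stood higher and 1 lower without overlap, and the median log2 fold change was 0.10, against 28.1% higher without overlap and a median of 0.09 over all tested genes. The synaptonemal complex gene syp-2 had 5.83 and 4.59 FPKM in wild-type larvae and 4.13 and 4.14 in mutant larvae (limma adjusted p = 0.627). Cell division genes, 16 tested of 17, had a median of -0.17, with 0 higher and 3 lower without overlap. Among them pcn-1, which encodes the replication clamp, had 92.0 and 82.4 FPKM in wild-type larvae and 44.3 and 64.8 in mutant larvae (limma adjusted p = 0.422), and the cell cycle inhibitor gene cki-1 at 47.7 and 51.3 and at 58.3 and 50.0 (adjusted p = 0.694).

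Cells next to the primordial germ cells were sampled by markers of the somatic gonad precursors. The defining markers ehn-3 and hnd-1 were near 0, at 0.171 to 0.270 FPKM and at 0 to 0.183 FPKM over the 4 libraries. Summed over all 7 markers the level was 55.9 and 45.7 FPKM in wild-type larvae and 37.0 and 45.5 FPKM in mutant larvae, most of it from tra-1 and ztf-16, whose RNA is not limited to these cells. Of the 5 markers tested, 0 passed by limma and 0 had an unadjusted p under 0.05. Over all tested genes these shares were 1.66% and 11.9%, so 5 markers are too few to tell whether these cells differed.

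**Figure D5:**
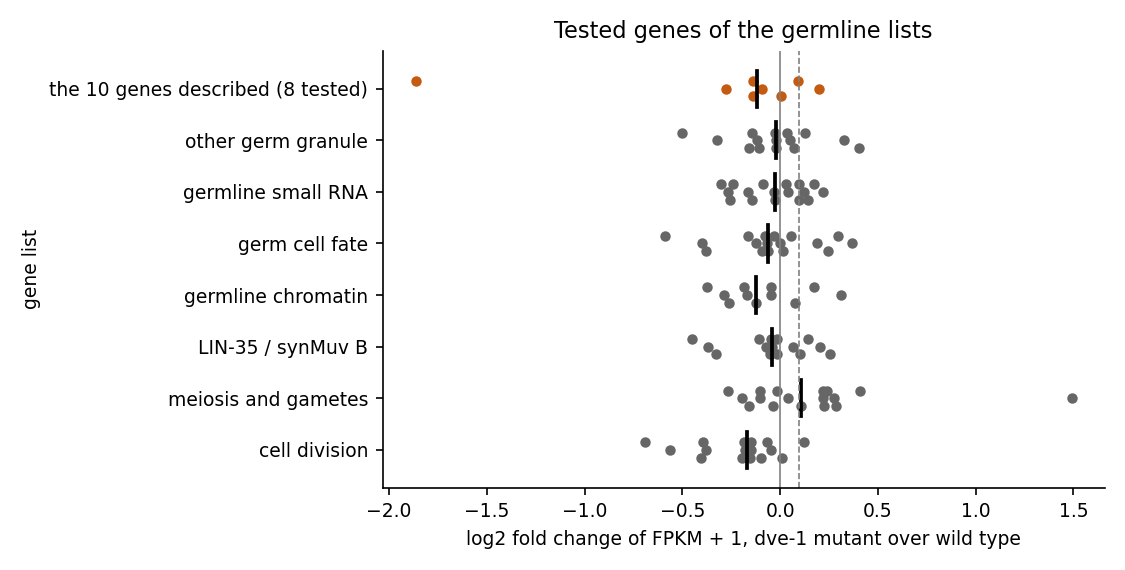
Log2 fold change of FPKM + 1, mutant over wild type, of each tested gene in the 10 genes described and in 7 further lists. Points are genes, thick ticks are list medians, the solid line is 0 and the dashed line the median of all tested genes (0.09). The point at -1.86 is glh-4, the one at 1.49 is rad-51, which was listed at 0 in 1 wild-type library, and the list medians lie between -0.17 and 0.10.

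Across the 4 libraries, the genes nearest to the mean profile of the 8 tested genes were pnpt-1, xpo-2, R08E3.3, rpb-5 and ZK795.3. Likeness was the Euclidean distance between log2(FPKM + 1) values centred on each gene's mean, over 4 libraries and 9585 other protein-coding genes whose mean reached 5 FPKM. Their distances ran from 0.0176 to 0.0350, and their log2 fold changes lay between -0.28 and -0.26. The mean profile is pulled down in the mutant by glh-4, and with 4 libraries such likeness is only a description.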

How the data were processed

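The authors aligned and quantified reads with TopHat2 and Cufflinks on build ce11, per the submitters' processing notes, which give no versions, strand or treatment of reads with several alignments. The values the authors deposited, 1 per accession and library for 52491 RefSeq accessions, were read as FPKM because the notes name Cufflinks. The header names no unit. Accessions were matched without version to the RefSeq table of WBcel235 (the assembly of ce11) and summed to 41614 genes, and the 4846 unmatched, 20.9% to 21.7% of FPKM, were not used. List genes without a matched accession were not analysed here. Transcript models were those of Ensembl for WBcel235.

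Testing used limma 3.58.1 (R 4.3.3) with its trend option on log2(FPKM + 1), two-sided, over the 15202 genes whose mean reached 1 FPKM, p-values being adjusted by Benjamini-Hochberg and called under 0.05. This scale understates fold changes of low genes. The step was tested on simulated data, with differences planted only in genes of higher level than glh-4 and nos-2. That test does not speak to genes as low as these. Libraries were grouped by title. Fragment numbers are estimates from a fit of depth and fragment length to low values.

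The 10 genes and all lists were chosen with earlier results of these data known. Named were the 10 genes, dve-1, list members past the threshold or else the 3 most abundant, and the 5 nearest profiles. The genes glh-3, meg-1 to meg-4, ehn-3, hnd-1, dpy-7, rol-6 and the neighbours of glh-4 and nos-2 were named after their values were seen. Alternatives covered scaling, pseudocount, filter, variance model, replicate block, accessions, gene class and each library left out. After seeing the data, no filter joined with a pseudocount of 0.1, the test of single accessions, and the FPKM limit applied anew with a library left out were added, and keeping the tested genes when a library is left out was preferred.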

Additional observations from a re-analysis of the deposited data

How the results depend on the processing

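Of the 10 genes, 0 passed by limma with all libraries, and glh-4 alone passed (1 gene) with a pseudocount of 0.01, without the intensity trend, among protein-coding genes only, and with either wild-type library left out while the genes tested were kept, so that the count ranged from 0 to 1 with 1 library left out. At a mean of at least 5 FPKM glh-4 was not tested. The median log2 fold change of the tested genes was -0.211 under median-ratio scaling, which moved the median of all genes by -0.108, and ranged from -0.217 to 0.00872 with 1 library left out. The sign of deps-1 turned under median-ratio scaling (-0.0942) and quantile normalization (-0.0234), and its value ranged from -0.176 to 0.181 with 1 library left out (-0.0666 without wild-type replicate 1), while mes-4 ranged from -0.304 to 0.0292. With the highest accession per gene deps-1 was at 0.398 and pgl-3 at 0.308, against 0.00269 and 0.0935. Of the other genes of the 10, none changed sign in the alternatives that tested it, which were only 2 for pgl-1 and 3 for nos-2, none of them a change of scaling or a library left out, and in the 7 further lists 0 genes passed under any alternative run. Over all genes 252 passed, against 105 at a mean of at least 5 FPKM, 36 among genes above 0 in all 4 libraries, 391 without the trend, 165 among protein-coding genes, 476 without a filter at a pseudocount of 0.1, and 369 to 767 with 1 library left out, the genes tested being kept. With the limit of 1 FPKM applied anew to the remaining libraries, 0 passed by limma without wild-type replicate 1 and without either mutant library (1731, 1460 and 2414 had an unadjusted p under 0.05), 719 passed without wild-type replicate 2, and glh-4 passed in none of the 4 fits. This way was run first, and keeping the genes, which changes 1 choice at a time, was preferred after both sets of counts had been seen. The cause of the difference was not tested. In every such fit a genotype has a lone library, which is assumed to vary like the rest. With the replicate block, which leaves 1 residual degree of freedom, 0 genes passed and 1166 had an unadjusted limma p under 0.05. The deviations of same-numbered libraries correlated at -0.0562 across genes. This shows no shared shift over genes as a whole, and a shift limited to some genes could not be seen this way. Depth limits nos-2 most, at an estimated 2.7 and 2.8 fragments in the mutant.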

Other observations

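Some germline and cell division genes differed more between replicates than between genotypes, as did the epidermis genes dpy-7 and rol-6 given above. The meiotic pairing gene him-8 had listed values of 0 and 131 FPKM in wild-type larvae and 139 and 0 FPKM in mutant larvae, the strand exchange gene rad-51 of 0 and 6.97 and of 6.59 and 7.31 FPKM, and the replication helicase gene mcm-4 of 134 and 19.0 and of 99.2 and 19.9 FPKM. None of the 3 passed by limma (adjusted p = 0.999, 0.627 and 0.974).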
